A study of Homo sapiens with 6 samples.

Results

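The receptors through which cells read TGF-beta, activins and bone morphogenetic proteins (BMPs) were examined in MDA-MB-231 cells with and without knock-down of HMGA1, a chromatin protein that binds AT-rich DNA. MDA-MB-231 is an established human cell line of triple-negative breast cancer. The family was chosen by receptor name with earlier results of the same comparison known, among them the difference in TGFBR2, and for each gene the row of highest mean was to be used. The differences with HMGA1 siRNA below are therefore a description and not independent evidence. Of the 10 receptor genes listed, 9 had a row annotated to them alone, 1 row each, among 14232 such genes in the table. The exception was BMPR1A, a type I receptor of BMPs, which was not analysed here. RNA was taken 48 hours after transfection with siRNA against HMGA1 (3 arrays) or with control siRNA (3 arrays) and hybridized to Affymetrix GeneChip Human Exon 1.0 ST arrays. The HMGA1 samples carry both sh and si prefixes in their labels, and they were taken as siRNA, as in the study's description of this experiment. The knock-downs were independent experiments by lipid transfection in 1 cell line, so the spread is that between experiments in these cells. All values are log2 expression after RMA, which corrects background, normalizes between arrays and summarizes the probes of a transcript.

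The receptors are membrane proteins with a serine and threonine kinase inside the cell. A dimeric ligand brings together type II receptors, whose kinase is always active, and type I receptors, which are phosphorylated by them and in turn phosphorylate SMAD proteins. TGF-beta signals mainly through TGFBR2 and TGFBR1 to SMAD2 and SMAD3, and BMPs through BMPR2 or the activin type II receptors to SMAD1, SMAD5 and SMAD9. Co-receptors such as TGFBR3 (betaglycan) and ENG (endoglin) have no kinase and present ligand. In breast cancer cells TGF-beta is known both for arrest of growth and for epithelial-mesenchymal transition and invasion.

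The 3 receptors of TGF-beta itself differ in the DNA before their annotated start, and these windows are shown because HMGA1 binds AT-rich DNA. Each is 300 bases of RefSeq sequence (GRCh38.p14), 250 before and 50 after the start of the gene, read 5′ to 3′. Capitals mark runs of at least 6 A or T bases, the GC box GGGCGG and the CCAAT box, both boxes on either strand. No capital stretch belongs to more than 1 of these. Other start sites of the genes were not examined, and the arrays do not measure binding.
TGFBR2, chr3:30606106-30606405, + strand: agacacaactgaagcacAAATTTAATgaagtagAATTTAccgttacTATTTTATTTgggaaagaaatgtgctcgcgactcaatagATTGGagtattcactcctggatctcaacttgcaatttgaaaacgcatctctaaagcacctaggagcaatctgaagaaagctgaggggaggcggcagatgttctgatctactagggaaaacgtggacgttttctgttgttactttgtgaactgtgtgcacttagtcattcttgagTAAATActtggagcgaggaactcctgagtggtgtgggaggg
TGFBR1, chr9:99104863-99105162, + strand: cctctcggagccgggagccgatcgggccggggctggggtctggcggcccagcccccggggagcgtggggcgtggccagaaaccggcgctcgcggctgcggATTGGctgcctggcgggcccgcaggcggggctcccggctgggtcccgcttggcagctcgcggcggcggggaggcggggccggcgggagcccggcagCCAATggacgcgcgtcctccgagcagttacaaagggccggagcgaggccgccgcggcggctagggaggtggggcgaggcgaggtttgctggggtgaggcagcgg
TGFBR3, chr1:91886102-91886401, - strand: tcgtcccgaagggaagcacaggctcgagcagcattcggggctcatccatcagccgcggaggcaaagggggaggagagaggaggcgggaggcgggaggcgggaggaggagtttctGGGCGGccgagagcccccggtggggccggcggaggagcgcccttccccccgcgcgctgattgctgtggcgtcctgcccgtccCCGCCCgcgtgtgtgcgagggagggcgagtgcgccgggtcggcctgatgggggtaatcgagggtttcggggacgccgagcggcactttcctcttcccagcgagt

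The TGFBR2 window was 57.7% A or T, more than 83.8% of the 35116 windows of that length in the table. It held 4 A/T runs, the longest of 10 bases, 1 CCAAT box and no GC box. TGFBR1 and TGFBR3 were GC-rich, with 21.3% and 28.3% A or T and no A/T run. TGFBR1 held 2 CCAAT boxes and TGFBR3 held 2 GC boxes. Over all windows 61.2% held an A/T run, 34.6% a CCAAT box and 45% a GC box, and the median A or T content was 41.3%. Of the other measured receptors, ACVR2A, a type II receptor of activins and BMPs, had a window as AT-rich as that of TGFBR2 (58.7%, 7 runs). The windows of ACVR1, ACVR1B, ACVR2B, BMPR2 and ENG had 17.7% to 31.7% A or T and no run. A match is only a match of letters.

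The targeted gene was read first. The row that lists HMGA1 together with its pseudogene HMGA1P8 was at 9.81, 9.65 and 9.76 on the HMGA1 siRNA arrays, against 10.11, 10.25 and 10.35 on the control siRNA arrays. No HMGA1 siRNA array reached the lowest control value, and the log2 fold change was -0.50 (standard error 0.10, adjusted p = 0.806 from limma). A second row, which lists HMGA1 together with APOE, was at 8.63, 8.24 and 8.44 with HMGA1 siRNA and 8.42, 8.52 and 8.74 with control siRNA. Its groups overlapped, at a log2 fold change of -0.12. As a background for the receptors, 0 of 22011 rows, or 0%, passed an adjusted p of 0.05 between HMGA1 siRNA and control siRNA in limma, with the smallest at 0.262. At an unadjusted p under 0.05, 1.74% of rows were higher and 1.56% lower with HMGA1 siRNA, and the unmoderated test called 0 rows after adjustment and 855 before it. Marker lists were checked against the cell label. The 8 listed markers of MDA-MB-231, among them VIM and AXL, had row means from 10.79 to 13.85, and those of 8 luminal, 8 endothelial, 6 fibroblast and 4 leukocyte markers lay between 4.45 and 8.82. The array means of the endothelial list, which bears on ENG, were 7.17 to 7.43 with HMGA1 siRNA and 7.36 to 7.42 with control siRNA. Those of the luminal list were 7.59 to 7.70 with HMGA1 siRNA and 7.71 to 7.80 with control siRNA, and their part in the receptor differences was not tested. The 2 arrays numbered replicate 3 stood apart from the others in both groups. For instance CDH1, or E-cadherin, was at 7.28 and 7.56 on the replicate 3 arrays with HMGA1 siRNA and control siRNA, and between 8.78 and 9.40 on the other 4. Each receptor result is therefore also given without these 2 arrays.

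With HMGA1 siRNA the largest difference in the family over the 6 equally weighted arrays was in TGFBR2, the type II receptor that binds TGF-beta. It was at 11.81, 11.85 and 11.72 on the HMGA1 siRNA arrays, against 11.35, 11.28 and 11.31 on the control siRNA arrays. The groups did not overlap, and the widest range within a group was 0.12. The means were 11.79 ± 0.06 and 11.31 ± 0.04 (SD, n = 3 each) with HMGA1 siRNA and control siRNA. The log2 fold change of TGFBR2 was 0.48 (standard error 0.09, 95% interval 0.28 to 0.68), or 1.40-fold. TGFBR2 did not pass the test over all 22011 rows (adjusted p = 0.551 from limma), and 162 rows, or 0.736%, had a higher log2 fold change. Without either replicate 3 array its log2 fold change was 0.51, and between those 2 arrays alone the difference was 0.41. TGFBR2 passed the adjusted threshold under 1 of 18 alternative settings, in which arrays were weighted (log2 fold change 0.43, adjusted p = 0.0333 from limma). Of 22011 rows, 198 passed in that setting, where HMGA1 siRNA replicate 3 had a weight of 6.80 and the other arrays 0.275 to 2.21. TGFBR2 was not the largest there, since TGFBR1 was at 0.46 (adjusted p = 0.0525).

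TGFBR1, the type I receptor that works with TGFBR2, was at 11.02, 11.28 and 11.31 on the HMGA1 siRNA arrays, against 10.79, 10.79 and 11.12 on the control siRNA arrays. Replicates 2 and 3 with HMGA1 siRNA were above all controls, while replicate 1 was below control replicate 3, so the groups overlapped. The log2 fold change was 0.30 (standard error 0.13, 95% interval -0.0075 to 0.62). It was 0.36 without the replicate 3 arrays and 0.19 between the replicate 3 arrays alone. The 2 and 2 arrays that remain without replicate 3 did not overlap, as in 22.8% of all rows. TGFBR3, the co-receptor that presents TGF-beta to TGFBR2, was at 10.31, 10.43 and 10.02 on the HMGA1 siRNA arrays, against 10.16, 9.87 and 9.71 on the control siRNA arrays. The overlap came from HMGA1 siRNA replicate 3, which was below control replicate 1. Its log2 fold change was 0.34 (standard error 0.15, 95% interval -0.018 to 0.70). The value was 0.36 without the replicate 3 arrays and 0.31 between them. Both TGFBR1 and TGFBR3 had an adjusted p of 1.00 from limma, and their unadjusted p values were 0.0545 and 0.0595 in the fit across all rows.

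**Figure D1:**
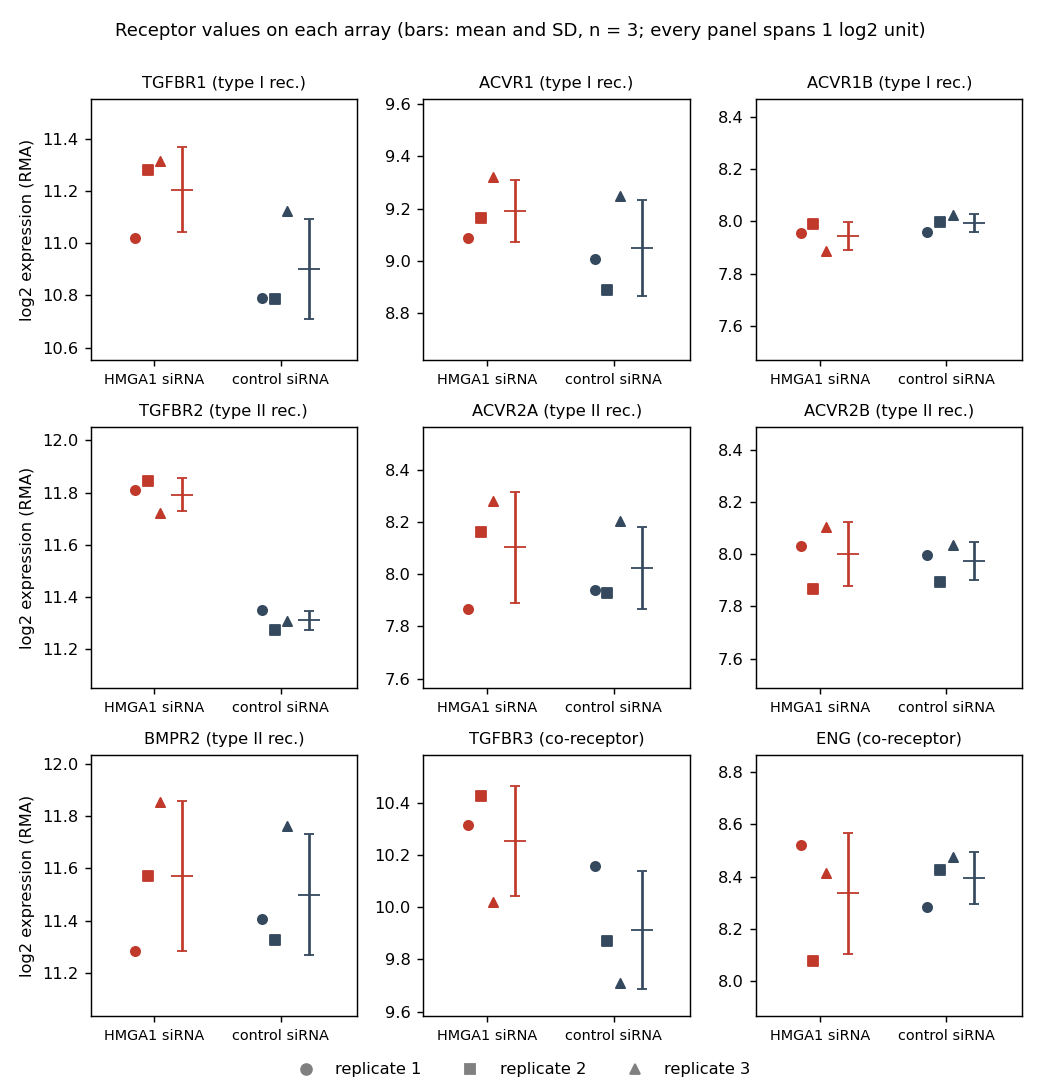
Each panel shows 1 receptor, with log2 expression after RMA on the vertical axis, HMGA1 siRNA arrays on the left and control siRNA arrays on the right; marker shape gives the replicate number and bars give mean and SD (n = 3). The groups are apart in TGFBR2 (11.72 to 11.85 with HMGA1 siRNA, 11.28 to 11.35 with control siRNA), and overlap in the other 8 receptors.

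Among the receptors for activins and BMPs the differences were smaller. Apart from BMPR2, these receptors also had dimmer rows than TGFBR1, TGFBR2 and TGFBR3. ACVR1, a type I receptor of BMPs and activins also called ALK2, was at 9.09, 9.17 and 9.32 with HMGA1 siRNA, against 9.01, 8.89 and 9.25 with control siRNA. The groups overlapped through control replicate 3, and the log2 fold change was 0.14 (standard error 0.12, 95% interval -0.14 to 0.43). ACVR1B, the type I receptor of activins, was at 7.96, 7.99 and 7.89 with HMGA1 siRNA, against 7.96, 8.0 and 8.03 with control siRNA. These 6 values lay close together in both groups, and the log2 fold change of -0.050 had an interval of -0.25 to 0.15. The upper end for ACVR1 lay within the interval of TGFBR2 (0.28 to 0.68), and that for ACVR1B below it. Differences between receptors were not tested.

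The type II receptors other than TGFBR2 overlapped between the groups. ACVR2A was at 7.87, 8.16 and 8.28 with HMGA1 siRNA, against 7.94, 7.93 and 8.20 with control siRNA. For ACVR2B, its close relative, the values were 8.03, 7.87 and 8.10 with HMGA1 siRNA, against 8.0, 7.89 and 8.03 with control siRNA. BMPR2, the type II receptor specific to BMPs, was at 11.28, 11.57 and 11.86 with HMGA1 siRNA, against 11.41, 11.33 and 11.76 with control siRNA. In each of the 3 genes the replicate 3 array was the highest of its group. The log2 fold changes were 0.079 for ACVR2A (95% interval -0.24 to 0.40), 0.026 for ACVR2B (-0.21 to 0.26) and 0.071 for BMPR2 (-0.34 to 0.48). The interval of BMPR2 was the widest of the 9 receptors. ENG, a co-receptor best known from endothelial cells, was at 8.52, 8.08 and 8.41 with HMGA1 siRNA, against 8.28, 8.43 and 8.48 with control siRNA. The highest and the lowest of the 6 values were both HMGA1 siRNA arrays, and the log2 fold change was -0.059 (95% interval -0.37 to 0.25). All 6 of these receptors had an adjusted p of 1.00 from limma. Without the replicate 3 arrays the log2 fold changes were 0.18 for ACVR1, -0.0046 for ACVR1B, 0.081 for ACVR2A, 0.0042 for ACVR2B, 0.060 for BMPR2 and -0.056 for ENG.

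Over the family, 7 of the 9 receptors had a log2 fold change above 0 and 2 below it, where 46.1% of all rows were above 0. The median was 0.079 for the receptors and -0.012 for all rows. None of the 9 passed the adjusted threshold. TGFBR2 was the only receptor at an unadjusted p under 0.05 and the only one whose groups did not overlap, where 4.28% of all rows were higher and 3.51% lower with HMGA1 siRNA without overlap. TGFBR1, TGFBR2 and TGFBR3 had log2 fold changes of 0.30 to 0.48, and the other 6 receptors of -0.059 to 0.14, among them ENG, which also binds TGF-beta. These ranges were not apart when arrays were weighted, with TGFBR3 at 0.11 and BMPR2 at 0.41. This grouping was made with the values known and was not tested.

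**Figure D2:**
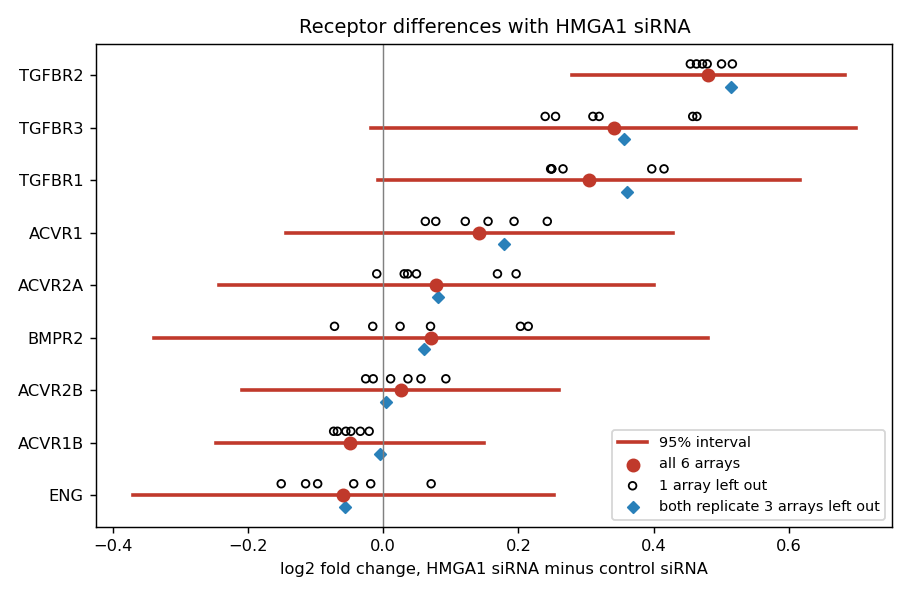
The horizontal axis gives the log2 fold change, HMGA1 siRNA minus control siRNA, for each of the 9 receptors; filled red points with lines are the estimate from all 6 arrays and its 95% interval from limma, open circles leave out 1 array each and blue diamonds leave out both replicate 3 arrays. TGFBR2 stays between 0.45 and 0.52 whichever array is left out, and 1 or more open circles lie on the other side of 0 for ACVR2A, ACVR2B, BMPR2 and ENG.

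Leaving out 1 array at a time moved the estimate of TGFBR2 between 0.45 and 0.52, and its groups were apart each time. The estimate of TGFBR1 was smallest when control replicate 2 was left out (0.25) and largest when control replicate 3 was (0.42). The estimate of TGFBR3 lay between 0.24, when control replicate 3 was left out, and 0.46, when control replicate 1 was. ACVR1 was at 0.062 without control replicate 2 and 0.24 without control replicate 3, and at 0.33 when arrays were weighted. The direction of 4 receptors changed when 1 array was left out. Without HMGA1 siRNA replicate 3 ACVR2A was at -0.0094, ACVR2B at -0.026 and BMPR2 at -0.072. ACVR2B and BMPR2 were also below 0 without control siRNA replicate 2, both at -0.015, and ENG was at 0.071 without HMGA1 siRNA replicate 2.

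The replicate number was compared in the same way, since replicate 3 arrays stood apart and this contrast was not used to choose the family. Arrays numbered 3 were set against the other 4 in a limma fit with treatment as a second term, a comparison added after the arrays had been seen. None of the 9 receptors passed an adjusted p of 0.05, where 0.200% of the 22011 rows were higher and 0.268% lower on replicate 3 arrays. BMPR2 had the largest difference in the family, with means of 11.81 on the replicate 3 arrays and 11.40 on the others (log2 difference 0.41, standard error 0.11, adjusted p = 0.193 from limma). TGFBR3 was the lowest array of its group in both replicate 3 samples, at 9.86 against 10.19 (log2 difference -0.33, standard error 0.11, adjusted p = 0.268). TGFBR1, ACVR1, ACVR2A, ACVR2B and BMPR2 were highest on the replicate 3 array in both groups. The share of all rows highest or lowest there in both groups was not counted. TGFBR2 was at 11.51 on the replicate 3 arrays and 11.57 on the others, a difference of -0.056 with a 95% interval of -0.26 to 0.14. In ACVR1, ACVR2A, ACVR2B, BMPR2 and ENG the difference by replicate number was larger in size than that by treatment. In TGFBR1, TGFBR2, TGFBR3 and ACVR1B it was smaller. Whether these differences themselves differ was not tested.

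**Figure D3:**
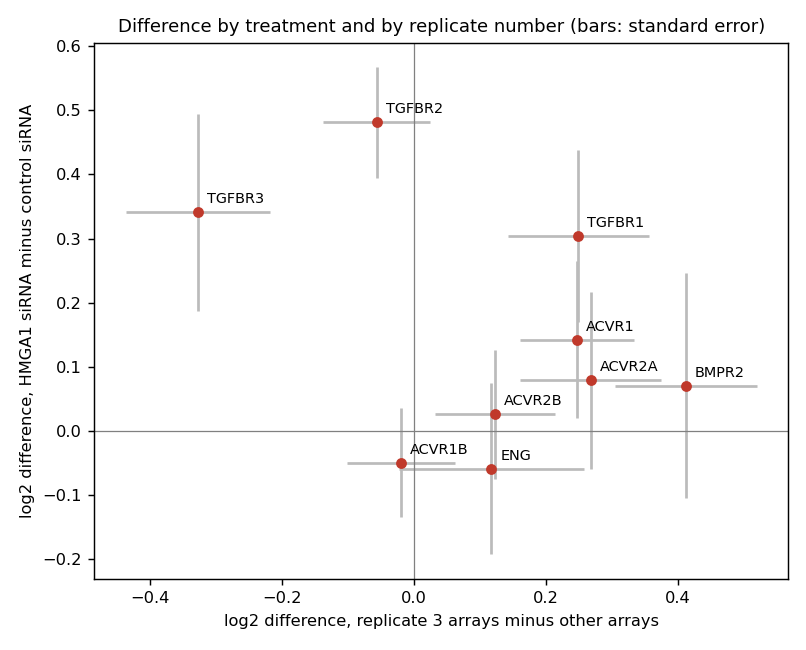
Each point is 1 of the 9 receptors, with the log2 difference between replicate 3 arrays and the other arrays on the horizontal axis and between HMGA1 siRNA and control siRNA on the vertical axis; bars are standard errors from limma. TGFBR2 lies near 0 by replicate number (-0.056) and highest by treatment (0.48), while BMPR2 lies at 0.41 by replicate number and 0.071 by treatment.

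The brightness of a row depends on its probes as well as on its RNA, so its place in the table is a description and not an order of receptor levels. TGFBR2, BMPR2 and TGFBR1 were brighter than 93.7%, 93.6% and 90.6% of all rows, TGFBR3 than 80.9% and ACVR1 than 65.2%. ENG, ACVR2A, ACVR2B and ACVR1B lay near the middle of the table, brighter than 50.5%, 44.8%, 43.3% and 42.9% of rows. Of 19 measured genes of other tissues, 3 were brighter than ACVR1B and ACVR2B, 2 than ACVR2A and ENG, and 1 than ACVR1. For TGFBR1, TGFBR2, TGFBR3 and BMPR2 the number was 0. TGFBR3 was barely above the brightest of those genes, MBP, with means over all arrays of 10.08 and 10.07. On the control siRNA arrays TGFBR3 was the dimmer, at 9.91 against 10.08 for MBP. Whether the dimmer receptors are expressed in these cells was not tested.

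The other genes of the pathway were read from lists by role. Of 132 listed, 112 had a row of their own, of which 44 had log2 fold changes above 0 and 68 below it (median -0.031). None passed the adjusted threshold in limma, and 2 higher and 2 lower were at an unadjusted p under 0.05, near the 1.74% and 1.56% of all rows. The groups did not overlap in 4 higher and 6 lower genes, where 4.28% and 3.51% of all rows did not. Among 7 further receptors and co-receptors, 2 were above 0 and 5 below it. BAMBI, a pseudoreceptor that inhibits TGF-beta signalling, was the highest at 0.16, and NRP1, which also binds TGF-beta, the lowest at -0.12. These 2 genes are among those without overlap. The receptor kinases ACVRL1, BMPR1B and AMHR2 had log2 fold changes of -0.0050, 0.017 and -0.012, and ACVR1C was not analysed here. Of 27 ligands, 5 had values above 0 and 22 below 0 (median -0.069), from INHA, the inhibin alpha subunit, at -0.48 to TGFB1 at 0.086. Some lists from outside the pathway leaned the same way, with 3 of 19 genes of other tissues above 0 and 16 below 0 (median -0.089). Endothelial markers were 1 above 0 and 7 below it, luminal markers 2 and 6, and leukocyte markers 0 and 4. Markers of MDA-MB-231 split evenly, 4 and 4, as did fibroblast markers, 3 and 3.

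The regulators outside and inside the cell had differences in both directions. Of 15 extracellular inhibitors and latency proteins, 5 were above 0 and 10 below it. FST, or follistatin, which binds activins, was the highest at 0.44 (standard error 0.17), with values of 11.90, 11.85 and 11.44 on the HMGA1 siRNA arrays, against 11.45, 11.43 and 10.99 on the control siRNA arrays. Its replicate 3 array was the lowest in each group, and the groups overlapped there. CHRD, or chordin, which binds BMPs, was the lowest at -0.15. Of 23 receptor adaptors, proteins of receptor turnover and sheddases, 12 were above 0 and 11 below it, from the deubiquitinase USP15 at -0.20 to the SMAD anchor ZFYVE9 at 0.23. The groups overlapped in all 23, where 7.79% of all rows did not overlap. Among the 8 SMAD proteins 4 were above 0 and 4 below it. SMAD3, which TGFBR1 phosphorylates, was the lowest at -0.20, at 11.07 to 11.17 with HMGA1 siRNA and 11.24 to 11.37 with control siRNA, and SMAD5, which BMP receptors phosphorylate, the highest at 0.24.

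Target genes of the pathway were read as RNA levels only, and signalling by the receptors was not measured. The 22 measured TGF-beta targets split evenly, 11 above 0 and 11 below it (median 0.00036), from JAG1 at -0.44 to IL11 at 0.41. The 12 BMP targets did the same, 6 and 6 (median 0.015), from MSX1 at -0.12 to ID2 at 0.80 (standard error 0.35). ID1 and ID3, like ID2 inhibitors of basic helix-loop-helix factors, were at 0.35 and 0.59. These 3 ID genes and RUNX2, at -0.095, were the brightest BMP targets, brighter than 74.3% to 94.3% of rows. The other BMP targets were brighter than 23.9% to 61.9%. None of JAG1, IL11, MSX1, ID1, ID2 and ID3 was apart between the groups. Both ID2 and JAG1 passed the test by replicate number, at -0.96 (adjusted p = 0.0424 from limma) and 0.73 (adjusted p = 0.0393) on replicate 3 arrays relative to the rest. ID1 and ID3 were at 0.71 and 0.94 there (adjusted p = 0.0637 and 0.0931 from limma). The groups are balanced in replicate number, so adding replicate 3 as a term leaves the log2 fold changes with HMGA1 siRNA unchanged. Whether the HMGA1 siRNA differences of these genes vary with replicate number was not tested.

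**Figure D4:**
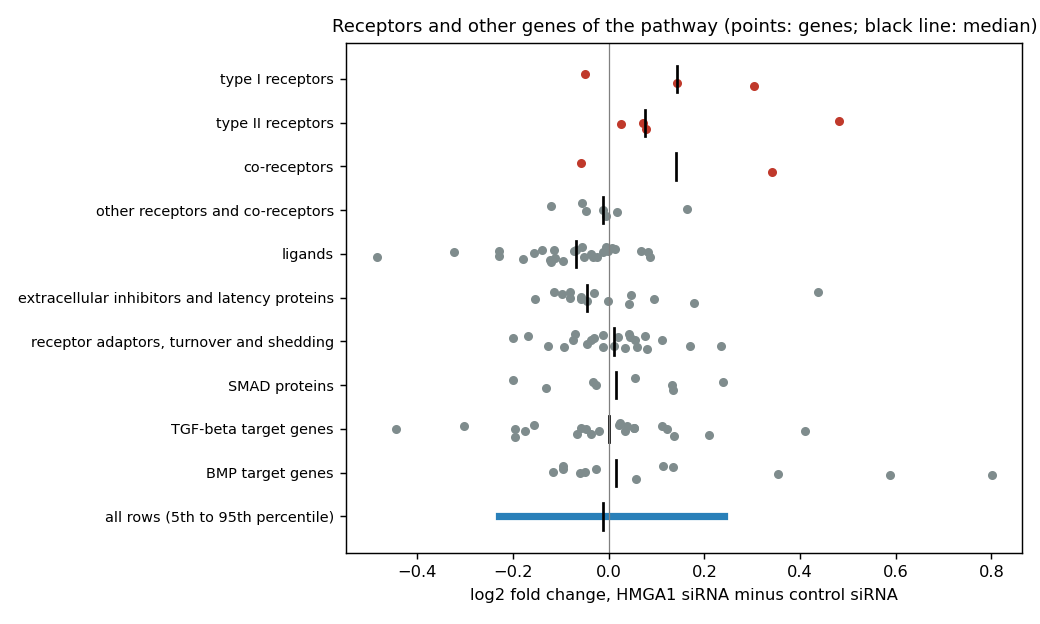
The horizontal axis gives the log2 fold change, HMGA1 siRNA minus control siRNA; each row of points is a list of genes by role, red for the 9 receptors and grey for other pathway genes, the black line is the median of the list and the blue bar spans the 5th to 95th percentile of all 22011 rows (-0.23 to 0.24). TGFBR1, TGFBR2 and TGFBR3 lie above that bar, at 0.30, 0.48 and 0.34. So do FST (0.44), IL11 (0.41), ID1 (0.35), ID2 (0.80) and ID3 (0.59). Below the bar lie INHA (-0.48), JAG1 (-0.44), GDF5 (-0.32), COL4A2 (-0.30) and, just past its end, BMP8A (-0.229). List medians lie between -0.069 and 0.14.

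Likeness to TGFBR2 over the 6 arrays was measured as Pearson's r across 14231 other genes, as a description. The 3 genes most like it were RPA2, a subunit of the single-strand DNA binding protein RPA (r = 0.993), CDC25B, a phosphatase of mitotic entry (r = 0.990), and ADCY9, an adenylate cyclase (r = 0.988). The 6 points fall into the treatment groups, apart in TGFBR2. Their log2 fold changes were 0.28, 0.21 and 0.14.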

How the data were processed

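RNA of 6 samples was measured on exon arrays, 3 with HMGA1 siRNA and 3 with control siRNA, each at 48 hours. The authors deposited 1 table of log2 values, made with RMA in the oligo package. Their processing notes also name hg18 and limma, without versions. No scanner files were used here. Each of the 6 arrays has 1 column, no other per-sample columns were present, no 2 arrays were identical, and correlations between arrays were 0.982 to 0.995. Array medians were 8.28 to 8.38. The number of arrays limits the precision.

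Of 22011 rows, 14432 have 1 gene symbol, 2408 have several and 5171 are unnamed here. Genes with several rows of their own were read from the row of highest mean. Values were compared without further scaling using limma 3.58.1 under R 4.3.3. Its lmFit and eBayes functions gave two-sided p values, which were adjusted by Benjamini-Hochberg across the 22011 rows at a threshold of 0.05. Intervals are 95% intervals of the same fit, and the steps were tested on simulated data. The members, gene lists and tests were chosen with earlier results of these data known. Named were all receptors, the highest and lowest gene of each pathway list, the 3 genes most like TGFBR2, and HMGA1. ACVRL1, BMPR1B, AMHR2, ID1, ID3, RUNX2, COL4A2, GDF5, BMP8A, MBP and CDH1 were named after their values were seen. Promoter windows are from RefSeq (GRCh38.p14), where all 10 receptors matched. Alternatives comprised quantile normalization, median centring, a filter on the dimmest 40% of rows, a trended and robust prior, array weights, the replicate number as a block, rows with 1 symbol, an unmoderated test, a threshold of 0.10, the mean over a gene's rows, and leaving out arrays. A term for replicate number 3 was added after the data had been seen. Figures were drawn with matplotlib 3.10.9.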

Additional observations from a re-analysis of the deposited data

How the results depend on the processing

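No receptor passed an adjusted p of 0.05 under any of 18 alternatives except array weights. With array weights 198 rows passed, of which 1 receptor (TGFBR2, log2 fold change 0.43, adjusted p = 0.0333 from limma, with up to 1.00 under its other alternatives) and 1 pathway gene (COL4A2), and the median log2 fold change of the receptors was 0.29. That fit gave HMGA1 siRNA replicate 3 a weight of 6.80 and the other arrays 0.275 to 2.21, and it lowered TGFBR3 to 0.11 and raised BMPR2 to 0.41 and ACVR1 to 0.33. The number of receptors whose groups did not overlap, 1 with all arrays (7.79% of all rows), was 1 to 3 with 1 array left out (TGFBR2 each time, with TGFBR1, ACVR1, TGFBR3 or, lower, ACVR1B; 12.5% to 26.9% of all rows then) and 4 without both replicate 3 arrays (TGFBR1, ACVR1, TGFBR2 and TGFBR3), where fewer arrays separate more often, in 22.8% of all rows. Without 1 array the median of the receptors ran from -0.0094 to 0.20. Under the remaining alternatives no row passed, and the median of the receptors was 0.079 to 0.10. The replicate block, the term for replicate number 3 and the mean over a gene's rows could not move that median. The groups are balanced in replicate number, and each receptor has 1 row. Same-numbered arrays had correlations of their deviations from the group means of -0.20, 0.26 and 0.53, so the numbers were not taken as pairs. HMGA1 siRNA replicate 1 was most like control replicate 3, and with the replicate block 0 rows passed (smallest adjusted p = 0.674), as without it (0.262). The block, array weights and the term for replicate number 3 do not alter which arrays overlap, so no overlap count was made there.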
